A study of Homo sapiens with 6 samples.

Results

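CTGF (CCN2), CYR61 (CCN1) and ANKRD1 are genes used as readouts of YAP and TEAD activity. RBMS3 is a member of a published signature of YAP/TEAD target genes. All 4 were entries of the log-ratio table that the authors deposited for MDA-MB-231 cells with reduced LOXL2. They were chosen by name from that table, with its values known, and are 4 of its 724 entries. MDA-MB-231 is a human cell line from a breast cancer, negative for the oestrogen receptor and mesenchymal in shape. Cells of this line received, by lentivirus, a control hairpin (shControl, 3 arrays) or a hairpin that targets LOXL2 (shLOXL2, 3 arrays), and their total RNA was measured on Affymetrix arrays. LOXL2 encodes an extracellular enzyme that cross-links the matrix by oxidising lysine side chains. The question is how transcript levels differ after the knockdown. No source used here gives the hairpin sequences, the time after infection or the number of separate cultures.

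The labels of shControl replicates 2 and 3 contradict themselves: their titles and knockdown field give the control hairpin, and their source name gives shLOXL2. Both arrays were kept as controls. The values of single arrays were deposited for 32321 probe sets identified by number alone, so the 4 genes have no value per array here, and neither do the markers of the cell line. What the 4 genes do have is 1 log ratio each, with no SD, n or p. The header of that table states neither log base nor direction. A question mark stands where 312 entries would have a minus sign, and reading it so leaves all 724 entries in falling order. LOXL2 then has the lowest entry of the authors' deposited table, at -3.04, and the direction was read from it as shLOXL2 over shControl. Read as a natural log, that entry of the authors' deposited table would be -4.38 in log2, and the lowest difference of any probe set on the arrays was -3.08. The entries were therefore read as log2, the scale of the arrays. The difference of -3.08 is between the groups as titled, with shControl replicates 2 and 3 as controls. It had a standard error of 0.17.

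YAP and its paralogue TAZ are transcriptional co-activators that do not bind DNA themselves. They are held in the cytoplasm when the kinases of the Hippo pathway phosphorylate them, and otherwise enter the nucleus and act on genes through TEAD factors, which bind the motif GGAATG. The pathway responds to cell density, cytoskeletal tension and the stiffness of the matrix. CTGF and CYR61, secreted matricellular proteins of the CCN family that bind integrins and heparan sulphate, and ANKRD1, an ankyrin repeat protein first studied in heart muscle, are its most widely used target genes. RBMS3 encodes an RNA-binding protein of the single-stranded interacting family.

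Windows of 250 bases before the gene start were available from RefSeq (build GRCh38.p14) for 3 of the 4 genes, and are shown because they differ in the TEAD motif. Each is written 5′ to 3′ on the strand of its gene, with matches to GGAATG or its reverse complement CATTCC in capitals. The CTGF window is chr6:131951373-131951622 (minus strand), the ANKRD1 window chr10:90921088-90921337 (minus strand) and the RBMS3 window chr3:29280821-29281070 (plus strand).
CTGF: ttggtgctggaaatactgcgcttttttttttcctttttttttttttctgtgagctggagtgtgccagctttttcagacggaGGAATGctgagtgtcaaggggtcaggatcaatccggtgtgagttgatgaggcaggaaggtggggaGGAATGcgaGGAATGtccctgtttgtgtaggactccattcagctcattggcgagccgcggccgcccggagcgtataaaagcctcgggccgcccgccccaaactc
ANKRD1: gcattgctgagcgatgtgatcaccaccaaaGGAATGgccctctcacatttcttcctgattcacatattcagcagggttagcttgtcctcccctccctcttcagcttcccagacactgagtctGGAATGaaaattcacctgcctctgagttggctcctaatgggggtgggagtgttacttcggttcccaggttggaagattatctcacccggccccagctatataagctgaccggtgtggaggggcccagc
RBMS3: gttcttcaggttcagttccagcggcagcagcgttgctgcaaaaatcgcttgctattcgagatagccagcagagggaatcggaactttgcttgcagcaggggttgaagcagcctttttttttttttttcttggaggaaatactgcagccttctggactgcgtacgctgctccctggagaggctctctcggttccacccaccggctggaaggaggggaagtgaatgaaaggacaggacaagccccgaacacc

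The CTGF window held 3 matches, which begin 169, 104 and 95 bases before the gene start. The ANKRD1 window held 2, beginning 220 and 128 bases before it. All 5 lie on the strand of the gene. The RBMS3 window held 0 matches, which says only that these letters are not in that window. When the 50 bases after the start were searched as well, no match was added in any of the 3. Of all 35116 RefSeq windows of 300 bases, 14.0% held at least 1 match, 1.37% at least 2 and 0.128% at least 3. Of the 22 genes of a YAP/TEAD signature described below, 16 had a window of 300 bases and 9 of these had a match. Over all genes with a window, 4567 of 27305 had a match. TGFB2 was among the 9, with 1 match on the opposite strand 185 bases before its start. Of the windows of genes listed lower in the authors' deposited table, 15.2% held a match, and of those listed higher 13.2%. The 250 bases of CTGF, ANKRD1 and RBMS3 each had a GC content of 53.2%, against a median of 58.0% over all windows.

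Other motifs were searched on both strands in the same 300 bases. The exact letters TATAAA, a form of the TATA box, were found 32 bases before the start of CTGF and in 11.5% of all windows. They were found in neither ANKRD1 nor RBMS3. Other forms were not searched, and the ANKRD1 window holds the similar letters tatataag near its end. An AP-1 motif, TGANTCA, was found 195 bases before the start of ANKRD1 and in 7.71% of all windows. The short SMAD motif CAGAC, present in 45.3% of all windows, was found once in CTGF and at 2 places in ANKRD1, the nearer of which shares 1 base with a TEAD match. None of these motifs was found in RBMS3. A match describes the sequence and does not show that a factor binds there.

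**Figure D1:**
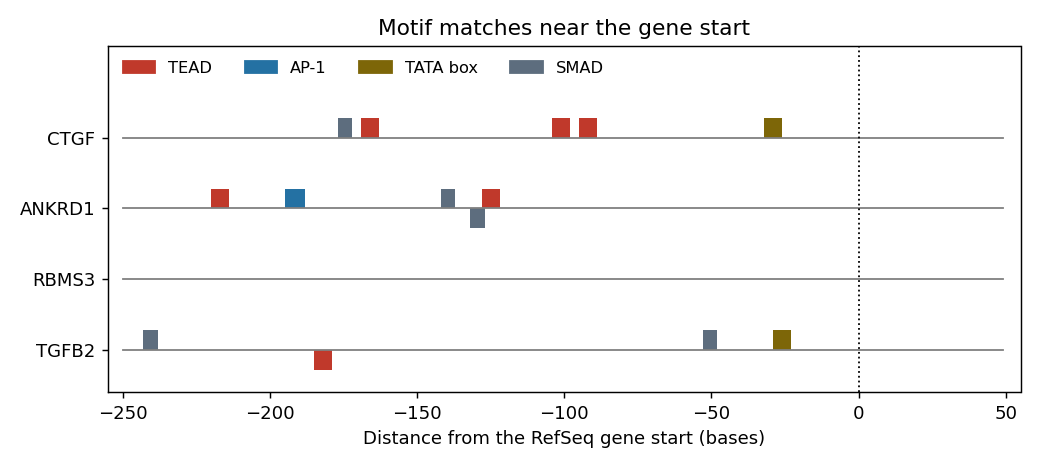
Motif matches from 250 bases before to 50 bases after the RefSeq gene start (dotted line) of CTGF, ANKRD1, RBMS3 and TGFB2, with distance in bases on the horizontal axis. Blocks above a line lie on the strand of the gene and blocks below it on the opposite strand. TATA box blocks mark the exact letters TATAAA only. The 3 TEAD matches of CTGF and the 2 of ANKRD1 stand above their lines, and the RBMS3 line is empty.

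All 4 genes were listed lower in shLOXL2 cells, in a table where 312 of 724 entries (43.1%) were listed lower. Since the genes were chosen from these values, this is a description and was not tested. CTGF had the lowest value of the 4 in the authors' deposited table, at -1.23 as log ratio, or 2.35-fold lower. CYR61 followed in the authors' deposited table at -1.09 (2.13-fold lower), ANKRD1 at -0.97 (1.96-fold lower) and RBMS3 at -0.78 (1.71-fold lower). The genes of both secreted CCN proteins thus stood below the other pair, and CTGF and RBMS3 lay 0.46 apart. Without a spread, the order of the 4 is not shown to exceed measurement error.

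The 4 genes lay within the lowest 28.8% of the entries listed lower. Counted from the lowest entry of the authors' deposited table, CTGF was number 8 of the 312 listed lower, CYR61 number 18, ANKRD1 number 31 and RBMS3 number 90. The median of the 4 was -1.03, where the 312 lower entries of the authors' deposited table had a median of -0.66 and reached up to -0.54. CTGF and CYR61 were among the 27 entries of the authors' deposited table at -1 or below, and ANKRD1 and RBMS3 were not. Each gene had a single entry, without the mark for duplicates that other entries carry.

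**Figure D2:**
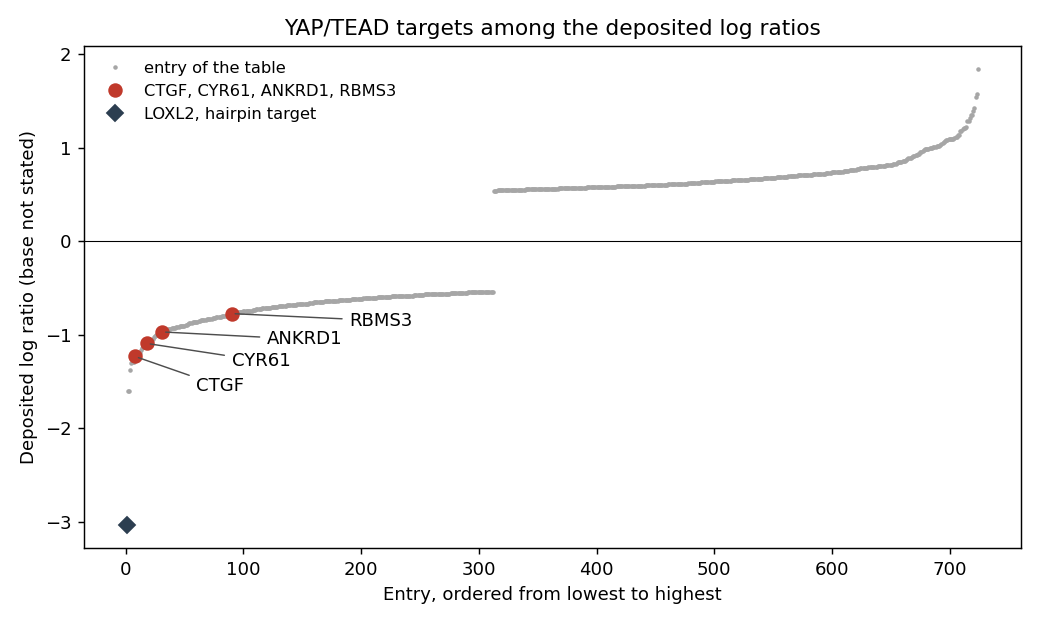
The 724 deposited log ratios (vertical axis, base not stated) ordered from lowest to highest (horizontal axis), each a grey point, with the 4 YAP/TEAD targets in red and LOXL2 as a dark diamond. The 4 targets lie between -1.23 and -0.78, CTGF nearest to the low end, and LOXL2 stands apart at -3.04.

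The authors' deposited table also gives a cellular location and a type for most entries. CTGF is labelled a growth factor of the extracellular space, the lowest of the 9 growth factors of the authors' deposited table, of which 8 were listed lower. In the extracellular space, where 30 of 60 entries of the authors' deposited table were listed lower, CTGF was number 3 and CYR61 number 5 from the bottom. ANKRD1 is labelled a cytoplasmic transcription regulator and was the lowest of 41 transcription regulators in the authors' deposited table, where 16 were listed lower. RBMS3 has an unknown location there and stood at number 30 of the 174 such entries of the authors' deposited table.

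With 1 comparison, likeness to a gene can be measured only by the distance between log ratios, and entries close in value were many. The entry nearest to CTGF in the authors' deposited table was FAM45A, 0.003 higher, and below it came KRTAP2-1 at -1.29, a keratin-associated protein gene. Close to CYR61 in the authors' deposited table were EI24 at -1.075 on the higher side, and TLR4, the receptor for bacterial lipopolysaccharide, at -1.120 and the EGF receptor ligand HBEGF at -1.128 on the lower side. ANKRD1 lay in the authors' deposited table between EGR1, an immediate early transcription factor, at -0.969 and EIF5AL1 at -0.975, followed by CAV1, the coat protein of caveolae, at -0.985. RBMS3 lay between PTPN12, a tyrosine phosphatase, at -0.773 and DMBT1, a secreted mucosal glycoprotein, at -0.782 in the authors' deposited table. None of the 8 protein-coding genes that flank the 4 on their chromosomes, such as DDAH1 and ZNHIT6 beside CYR61, matched an entry by its RefSeq symbol. Those beside RBMS3 have only LOC numbers as symbols, so their lack of a match by name says little.

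The 4 genes belong to a published signature of 22 YAP/TEAD target genes. The authors' deposited table held 5 of these 22, all 5 listed lower, where 43.1% of the 635 named genes were. The fifth was TGFB2, a ligand of the TGF-beta receptors, at -0.83 in the authors' deposited table, between ANKRD1 and RBMS3. The median of the 5 was -0.97 in the authors' deposited table, against -0.67 for all named genes listed lower. Because 4 of the 5 were chosen from these values, the count and the median largely repeat that choice and were not tested. The other 17, among them AMOTL2, AXL, F3, IGFBP3, LATS2 and NT5E, matched no entry. The rule by which the authors selected entries is not given, so a gene that is not an entry has no known value, and 22.7% of the signature is covered.

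A broader published signature of YAP response, written here with 60 genes of which 13 are also among the 22, did not run in a single direction. The authors' deposited table held 16 of them, 10 listed lower and 6 higher. Beside the 5 genes above, those listed lower in the authors' deposited table were PMP22, a peripheral myelin protein, at -0.89, THBS1, an adhesive matrix glycoprotein, at -0.84, the transcription factor ETV5 at -0.62, the RNA-binding protein BICC1 at -0.54 and the transglutaminase TGM2 at -0.54. CTGF, CYR61 and ANKRD1 were lower than any of these 5 in the authors' deposited table.

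The genes of that signature listed higher were mostly genes of cell division. Of its 11 cell cycle genes, 5 were in the authors' deposited table and all 5 were listed higher, with a median of 0.75. Of all 635 named genes of the authors' deposited table, 56.9% were listed higher, and those had a median of 0.65. Of the 5 cell cycle genes in the authors' deposited table, CENPF, a kinetochore protein, had 1.08 and HMMR, a spindle-associated hyaluronan receptor, 0.81. TK1, thymidine kinase, had 0.75 there, SHCBP1 0.69 and ECT2, an activator of RhoA in cytokinesis, 0.63. Without these 11, 11 genes of the signature stood in the authors' deposited table, of which 10 were listed lower and 1 higher. That gene was GGH, a folate-processing hydrolase, at 0.71 in the authors' deposited table. The 10 include the 4 genes chosen from these values. Outside the 22-gene signature, 5 genes of the broader one were listed lower and 6 higher. With the cell cycle genes left out as well, 5 were listed lower and 1 higher. The split by cell cycle genes was seen after the values were known, and no list was tested.

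**Figure D3:**
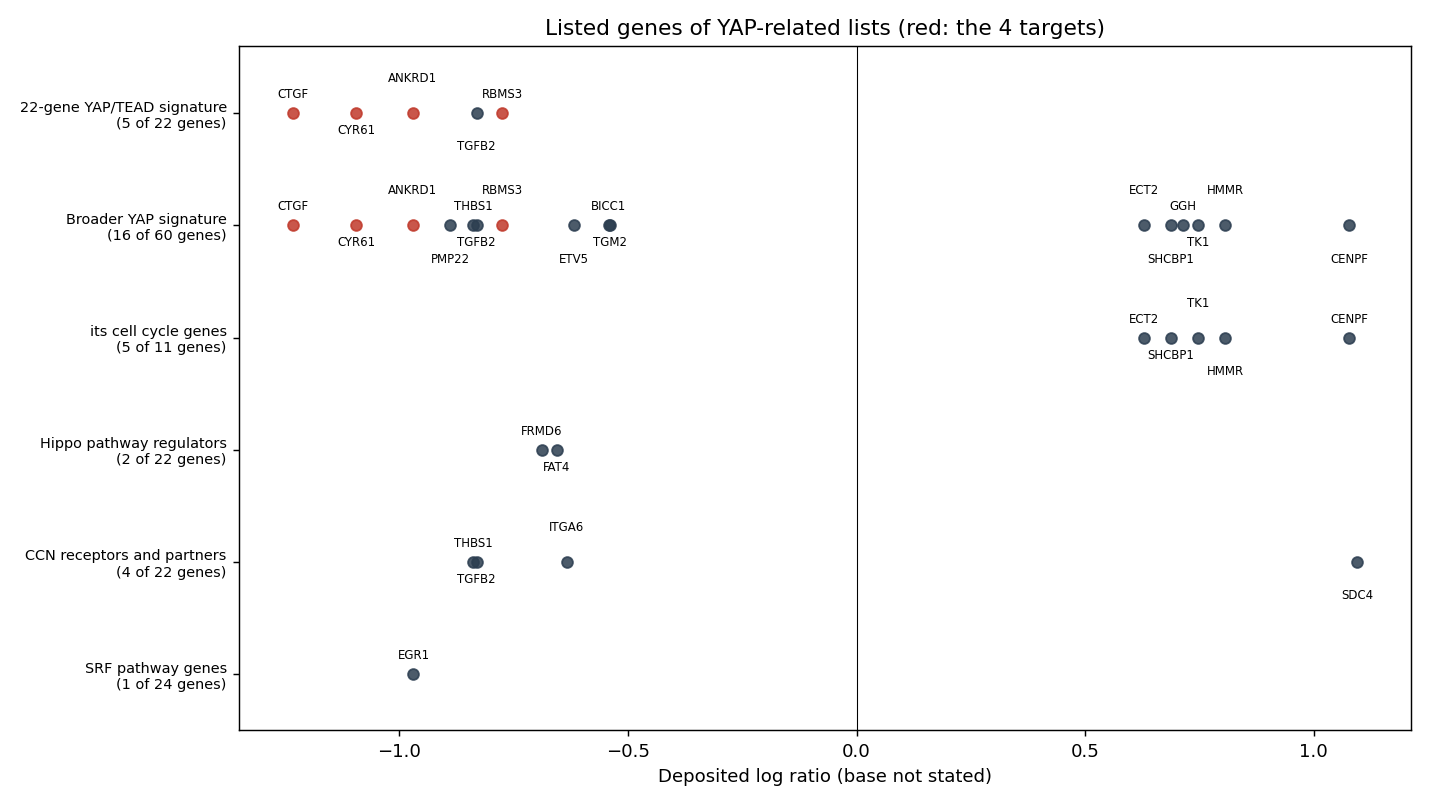
Deposited log ratio (horizontal axis, base not stated) of each listed gene in 6 gene lists, 1 row per list, with the 4 YAP/TEAD targets in red and other genes in dark blue. The 5 listed genes of the 22-gene signature, of which 4 are the chosen targets, lie below 0. The broader YAP signature has 10 genes below and 6 above 0, 5 of the 6 being its cell cycle genes.

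Among regulators of the pathway few genes were entries. Only 2 of 22 Hippo pathway genes stood in the authors' deposited table, both on the lower side, where 43.1% of the 635 named genes were. FRMD6, an upstream FERM domain protein, had -0.69 in the authors' deposited table, and FAT4, a large cadherin that acts as a receptor upstream of the kinases, had -0.66. The kinases themselves (STK3, STK4, LATS1, LATS2) matched no entry. Of YAP1, WWTR1 (TAZ), the 4 TEAD genes and the 4 VGLL cofactors, none was an entry by its identifier. An entry of the authors' deposited table, at 0.57, names TEAD1 in its symbol column, but its identifier is AA, which RefSeq lists as a synonym of TEAD1. Other identifiers there appear to lack the letters NA, such as AHK (AHNAK) and GQ (GNAQ). By that pattern AA would be a shortened NAAA, a different gene. The entry was not counted as TEAD1.

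Of the 6 CCN genes, CTGF and CYR61 were entries and the other 4 matched none. ANKRD2 and ANKRD23, the relatives of ANKRD1, and RBMS1 and RBMS2, those of RBMS3, matched none either. Of 22 receptors and binding partners of CCN proteins, the authors' deposited table held 4, 3 listed lower and 1 higher. Of its 635 named genes, 43.1% were listed lower. ITGA6, the integrin chain that pairs with ITGB1 to bind CTGF and CYR61, had -0.63 in the authors' deposited table, beside TGFB2 and THBS1. Both TGFB2 and THBS1 were also counted in the broader signature above. SDC4, a heparan sulphate proteoglycan and coreceptor, had 1.10 in the authors' deposited table, the highest of the 4. CTGF, CYR61 and ANKRD1 are also known to respond to SRF and its cofactors. Of 24 genes of that pathway 1 was in the authors' deposited table, EGR1 at -0.97.

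Markers of other cell types were looked up in the same table. None of 6 fibroblast and 5 blood cell markers was an entry, and of 5 endothelial markers KDR was, at -0.80 in the authors' deposited table. Of 9 markers of the cell line and of epithelial breast cells, EPCAM was an entry, at a mean of 0.63 over its 2 entries in the authors' deposited table. Their part in the values of the 4 genes was not tested.

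The arrays show how precise differences of this size were, though not which probe sets measure the 4 genes. In a limma fit to all 32321 probe sets (log2 values, 6 arrays, Benjamini-Hochberg adjustment), 1 probe set was called lower at an adjusted p under 0.05 (0.00309% of all), with a difference of -3.08, and 0 were called higher. That call was lost when any 1 of the 6 arrays was left out (0 to 0 calls in limma, where between 1063 and 2250 had an unadjusted p under 0.05). With all arrays, 1781 probe sets had an unadjusted p under 0.05 by limma, and 2964 with the replicate number as a block. A difference at or below the log ratio of CTGF was found for 32 probe sets (0.099%), at or below that of CYR61 for 59 (0.183%), ANKRD1 for 94 (0.291%) and RBMS3 for 230 (0.712%). The corresponding numbers of entries in the authors' deposited table are 8, 18, 31 and 90. In the opposite direction, 17, 35, 64 and 154 probe sets reached the size of CTGF, CYR61, ANKRD1 and RBMS3. Without the probe sets below the median level, the counts for CTGF, CYR61, ANKRD1 and RBMS3 were 7, 20, 32 and 94. With shControl replicate 1 alone, the control whose labels do not contradict each other, they were 234, 391, 591 and 1190. That control is 1 array, with the highest median log2 value of the 6 (5.82). Neither other control was taken alone, so these counts cannot be tied to the labels. The count for CTGF was 51 without shLOXL2 replicate 1, 62 without shLOXL2 replicate 2 and 76 without shControl replicate 3. Without shLOXL2 replicate 2 or shControl replicate 3, those for CYR61 were 101 and 135, for ANKRD1 166 and 229, and for RBMS3 386 and 481.

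Of the 19 probe sets whose difference lay within 0.05 of the log ratio of CTGF, the median standard error was 0.31, with a range from 0.15 to 0.75. The 3 shLOXL2 arrays lay wholly below the 3 shControl arrays in 11 of the 19, against 6.21% of all probe sets. For CYR61 the median standard error was 0.39 over 21 probe sets, and 13 had groups that did not overlap. For ANKRD1 these values were 0.30 over 42 probe sets and 23, and for RBMS3 0.30 over 105 probe sets and 53. The median over all 32321 probe sets was 0.16. Such probe sets were picked by their difference, so nothing is read from their shares beside those of all probe sets. None of them passed in limma, where the lowest adjusted p was 0.547 near CTGF, 0.363 near CYR61, 0.547 near ANKRD1 and 0.624 near RBMS3. At an unadjusted p under 0.05 by limma there were 12 of 19 near CTGF, 16 of 21 near CYR61, 31 of 42 near ANKRD1 and 60 of 105 near RBMS3, against 5.51% of all probe sets. With the replicate number as a block these were 14, 19, 36 and 90.

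**Figure D4:**
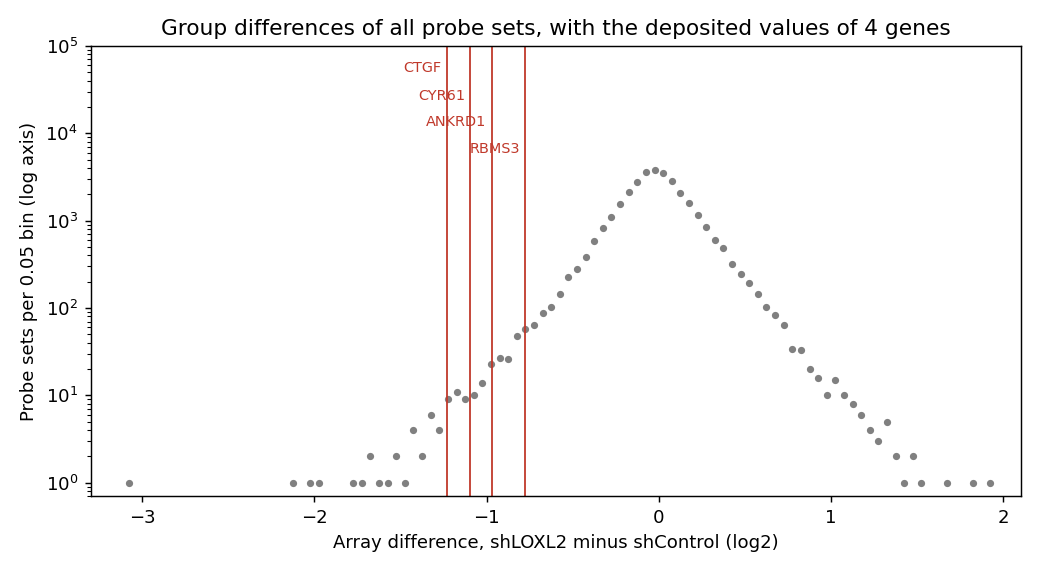
Number of probe sets (vertical axis, log scale) by the difference of group means between shLOXL2 and shControl arrays (horizontal axis, log2), in bins of 0.05, with empty bins left out. Red lines mark the deposited log ratios of CTGF, CYR61, ANKRD1 and RBMS3, read as log2, which lie on the lower flank, with 32 to 230 probe sets at or below them.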

How the data were processed

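Per the labels, 6 arrays of MDA-MB-231 RNA were grouped by title into shLOXL2 and shControl. The log2 values of 32321 probe sets were deposited by the authors after RMA, per the submitters' processing notes, and the median log2 value ranged from 5.74 to 5.82 per array. Precision is limited by the number of arrays. No label names separate cultures, so the p-values reflect the spread among these 6 arrays alone, which may be technical. The RMA version, the build and the probe annotation are not stated in the labels. The authors' deposited table of log ratios comes from Ingenuity Systems software, per the file headers. Its log base, direction and selection rule are not stated. It held 18 blank rows. Of 724 entries, 674 matched a RefSeq symbol (assembly GRCh38.p14) and 50 were left unnamed. Some identifiers, such as AHK and GQ, appear to have lost the letters NA. A list gene with those letters, such as FLNA, could not be matched by name if its entry was shortened. Entries of a gene were averaged, and 1 gene with entries of both signs was left out.

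The test was limma (3.58.1, under R 4.3.3) on every probe set with group as the only term, and it was tested on simulated data. Deviations from the group means correlated between same-numbered arrays (0.354, 0.452 and 0.160). The labels do not say that the numbers pair the arrays. The main fit left the numbers out, and a fit with a replicate block was the alternative. Calls, standard errors and p-values are from the main fit unless another is named. Lists and table values were not tested. Members, gene lists and the rule for named genes (the 4 genes, LOXL2, list genes that are entries, the nearest entries and flanking genes) were chosen with earlier results of these data known. The signatures were written by hand and may differ from the published lists. A signature gene and an entry near CYR61 are not reported here and are not counted in the lists. Motifs were searched on both strands. The planned comparison of protein sequences was not run, because no protein table was used here.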

Additional observations from a re-analysis of the deposited data

How the results depend on the processing

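In limma, 1 probe set was called lower under trend and robust moderation, quantile normalization, median centring, without the dimmer probe sets and with the replicate block (1 call, with 2964 probe sets at an unadjusted p under 0.05 against 1781 without the block). There were 0 to 0 calls with any 1 array left out (1063 to 2250). With shControl replicate 1 alone there were also 0 calls (3975 at an unadjusted p under 0.05 by limma), but that fit takes its spread from the shLOXL2 arrays, assumes that the lone control varies like them, and says nothing about stability. The number of probe sets at or below the log ratio of CTGF, CYR61, ANKRD1 and RBMS3 (32, 59, 94 and 230) was 7, 20, 32 and 94 without probe sets below the median level. It was 234, 391, 591 and 1190 with shControl replicate 1 alone, the control without a contradictory source name. That array had the highest median log2 value (5.82), and neither other control was taken alone. The number was 4, 9, 17 and 55 with the table read as natural logs, an alternative chosen after seeing the data. That reading leaves fewer probe sets than the 8, 18, 31 and 90 entries and puts LOXL2 below every probe set. With any 1 array left out it ranged from 36 to 76, 66 to 135, 115 to 229 and 243 to 481. The cause was not tested. The replicate block leaves these differences as they are, and changed no call. With the motif 1 base longer (GGAATGT), 1 of the 3 genes kept a match, CTGF, as did 3.46% of all windows and 3 genes of the 22-gene signature. At least 2 matches, counted after seeing the data, were found in 1.37% of all windows and 3 signature genes, and at least 3 in 1 gene, CTGF, in 0.128% of all windows and in 1 signature gene. Counts of list genes stayed within 1.5 times when only file symbols were matched, when the entry farthest from 0 was taken and when entries under the median size were left out.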
